A study of Rattus norvegicus with 72 samples.

Results

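Macrophage and immune cell marker genes were followed in primary rat hepatocyte cultures as a readout of the other liver cells left among the hepatocytes. The 37 member genes were chosen by symbol as known markers of macrophages and leukocytes, and every probe set of the array that carries such a symbol was taken, whatever its values. The choice was made with earlier results of these data known. Counts of members set beside the share of all probe sets are therefore a description and not independent support. Of the 37, 32 had a probe set and 25 passed the filter on low values. The 7 below the filter were Ncf1, Ncf4, Itgam, Lcp2, Cd3e, Cd37 and Vav1, and 5 had no probe set under their symbol (Marco, Spi1, Vsig4, Msr1 and Slc11a1). The array held 31099 probe sets, of which 18048 passed, and the 25 members stand among 10178 genes measured.

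The liver holds a large resident macrophage population, the Kupffer cells, which line the sinusoids and take up particles, debris and old erythrocytes. Collagenase perfusion of the liver yields mostly hepatocytes, but some Kupffer, endothelial and stellate cells usually come along. Hepatocytes themselves make little of the transcripts of myeloid cells, such as those of the complement C1q chains, the signalling adaptor Tyrobp or the pan-leukocyte phosphatase Ptprc.

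The cultures were monolayers of hepatocytes kept in William's E medium, with serum at first and then without it, and were exposed for 24 h or 72 h. The genotoxic carcinogens were aflatoxin B1 (19 nM), 2-nitrofluorene (78 µM) and the tobacco-specific nitrosamine NNK (625 µM). The non-genotoxic carcinogens were Wy-14643 (250 µM), piperonyl butoxide (13.4 µM) and methapyrilene hydrochloride (8.5 µM), and the non-carcinogens were nifedipine (156 µM) and clonidine (277 µM). Wy-14643, clonidine and aflatoxin B1 share a control group (called here the Wy-14643 set), 2-nitrofluorene, piperonyl butoxide and nifedipine share another (the nifedipine set), and NNK and methapyrilene each have their own. Each of the 24 groups held 3 arrays, 72 in all. The labels number the arrays by D (D1 to D3 in the Wy-14643 set, D4 to D6 for methapyrilene, D7 to D9 in the nifedipine set and for NNK) without saying what D stands for, and they speak of 3 independent experiments per compound. The p-values below measure the spread between these arrays. The sources used here do not give strain, sex, age or vehicle.

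The values are MAS5 signal intensities, 1 number per probe set and array, scaled to the same trimmed mean on every array. Array medians lay between 15.7 and 23.7, and 17.5% to 23.9% of probe sets per array lay at or under the floor of 3.12 that was set before taking log2. All 20 hepatocyte genes of the marker list that have a probe set were measured, and both probe sets of the albumin gene Alb read at least 2482 on every array. Of 14 T, B and NK cell genes with a probe set, 12 were below the filter. Cd3d was at the floor on 97.2% of the arrays, 1 of the Cd3e probe sets on all 72, the B cell gene Cd79b on 88.9% and the neutrophil gene Camp on 97.2%. Others were less often there, such as Cd3g (23.6%), Cd5 (12.5%), the other Cd3e probe set (20.8%) and the neutrophil gene Csf3r (33.3%). Lck and Zap70 passed the filter, as did the neutrophil gene S100a8, at the floor on 65.3% of the arrays. S100a8 rose from 24 h to 72 h in the control of NNK (2.39 in log2, limma adjusted p 0.00681). All its 24 h arrays there lay under the floor (0.46 to 1.16), against 9.19 to 34.4 at 72 h. It passed the filter only through the 72 h NNK group, which carries the same D numbers. That rise is therefore partly set by the floor and the filter. All 8 D3 arrays, and of the aflatoxin B1 arrays also D1 at 24 h and D2 at 72 h, had a high ratio of 3' to 5' actin signal (1.84 to 2.71 in log2, against 0.36 to 1.11 on the other 62), a sign of RNA quality. On the D3 arrays, a score of time in culture ran opposite to the labels. The score runs from 0 at 24 h to 1 at 72 h in the 3 control groups without D3 arrays, over 5777 probe sets that changed with time there, members left out, and its difference 72 h minus 24 h was -0.51 ± 0.12 on D3 (SD, n = 4 pairs) against 0.69 ± 0.24 in the other 23 pairs of exposed groups and the control of the Wy-14643 set. For the Wy-14643 set, member medians and calls against the control and with time are therefore given with and without those arrays. Values of single genes and of the other lists include the D3 arrays.

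PU.1, the product of the member gene Spi1, is the best known regulator of myeloid genes, and its family binds sites with a GGAA core. The sequences just upstream of members that passed a test are shown for that reason. Of the 10 members that passed in some comparison, 7 had an upstream sequence in RefSeq's table for the rat build GRCr8. The 150 bases before the start of each follow, 5' to 3' on the gene's strand, with each GAGGAA or its other-strand form TTCCTC, the core of many PU.1 sites, in capitals.

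Ctss (chr2:185775246-185775395, plus strand): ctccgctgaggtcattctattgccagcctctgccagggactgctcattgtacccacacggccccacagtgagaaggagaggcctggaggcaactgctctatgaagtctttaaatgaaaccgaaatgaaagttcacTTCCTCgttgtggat
C1qb (chr5:154407828-154407977, minus strand): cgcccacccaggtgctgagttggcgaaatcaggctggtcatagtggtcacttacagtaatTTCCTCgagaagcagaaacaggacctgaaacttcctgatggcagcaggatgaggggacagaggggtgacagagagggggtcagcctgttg
Laptm5 (chr5:148371730-148371879, plus strand): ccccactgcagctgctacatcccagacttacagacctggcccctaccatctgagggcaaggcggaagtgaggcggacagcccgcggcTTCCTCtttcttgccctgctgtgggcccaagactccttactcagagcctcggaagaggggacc
Mrc1 (chr17:82157575-82157724, plus strand): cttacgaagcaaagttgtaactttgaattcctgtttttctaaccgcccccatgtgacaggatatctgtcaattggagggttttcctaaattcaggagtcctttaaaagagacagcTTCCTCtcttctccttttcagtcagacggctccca
C1qa (chr5:154419934-154420083, minus strand): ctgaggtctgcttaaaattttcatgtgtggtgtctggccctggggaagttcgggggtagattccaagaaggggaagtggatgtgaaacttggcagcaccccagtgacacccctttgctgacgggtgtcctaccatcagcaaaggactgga
Cd163 (chr4:158770624-158770773, plus strand): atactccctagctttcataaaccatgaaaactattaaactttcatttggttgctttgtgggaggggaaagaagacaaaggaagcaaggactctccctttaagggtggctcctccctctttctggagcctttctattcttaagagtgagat
Ptprc (chr13:52259747-52259896, minus strand): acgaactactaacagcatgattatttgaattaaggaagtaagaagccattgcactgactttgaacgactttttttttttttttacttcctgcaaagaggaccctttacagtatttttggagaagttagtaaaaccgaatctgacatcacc

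These letters occurred, on either strand, within 250 bases upstream in 5 of those 7 members, in 12 of the 17 measured members with an entry and in 17 of the 24 member genes with one. Over all 33469 entries of the table the share was 23.3%. That share counts entries, whereas a member counted if any of its entries held the letters, so they are not like for like. In the printed sequences the letters start at -15 for Ctss, -90 for C1qb, -63 for Laptm5 and -35 for Mrc1, and C1qa, Cd163 and Ptprc have none there. A match of 6 letters is a description of the sequence and not a binding site.

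Within most exposures the members lay largely on the same side of their control (the heat map of member differences). They were lower after Wy-14643, nifedipine and 2-nitrofluorene, with medians further from 0 at 72 h than at 24 h. The median differences over the 25 members, in log2 against the own control, were -0.76 at 24 h and -1.37 at 72 h for Wy-14643, -0.39 and -1.51 for nifedipine and -0.58 and -1.01 for 2-nitrofluorene. They were higher after aflatoxin B1, with medians of 0.65 and 1.02. For clonidine (-0.13 and -0.17), piperonyl butoxide (-0.13 and -0.27), NNK (-0.13 and 0.07) and methapyrilene (-0.21 and -0.14) the medians were within 0.27 of 0. The median of all probe sets lay between -0.07 and 0.01 in these 16 comparisons. Of the 16, only the 72 h exposures to Wy-14643 and nifedipine held members that passed the test (limma, Benjamini-Hochberg adjusted p under 0.05 over all 18048 probe sets). In bulk arrays, fewer cells of a type and less RNA per cell cannot be told apart.

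**Figure D1:**
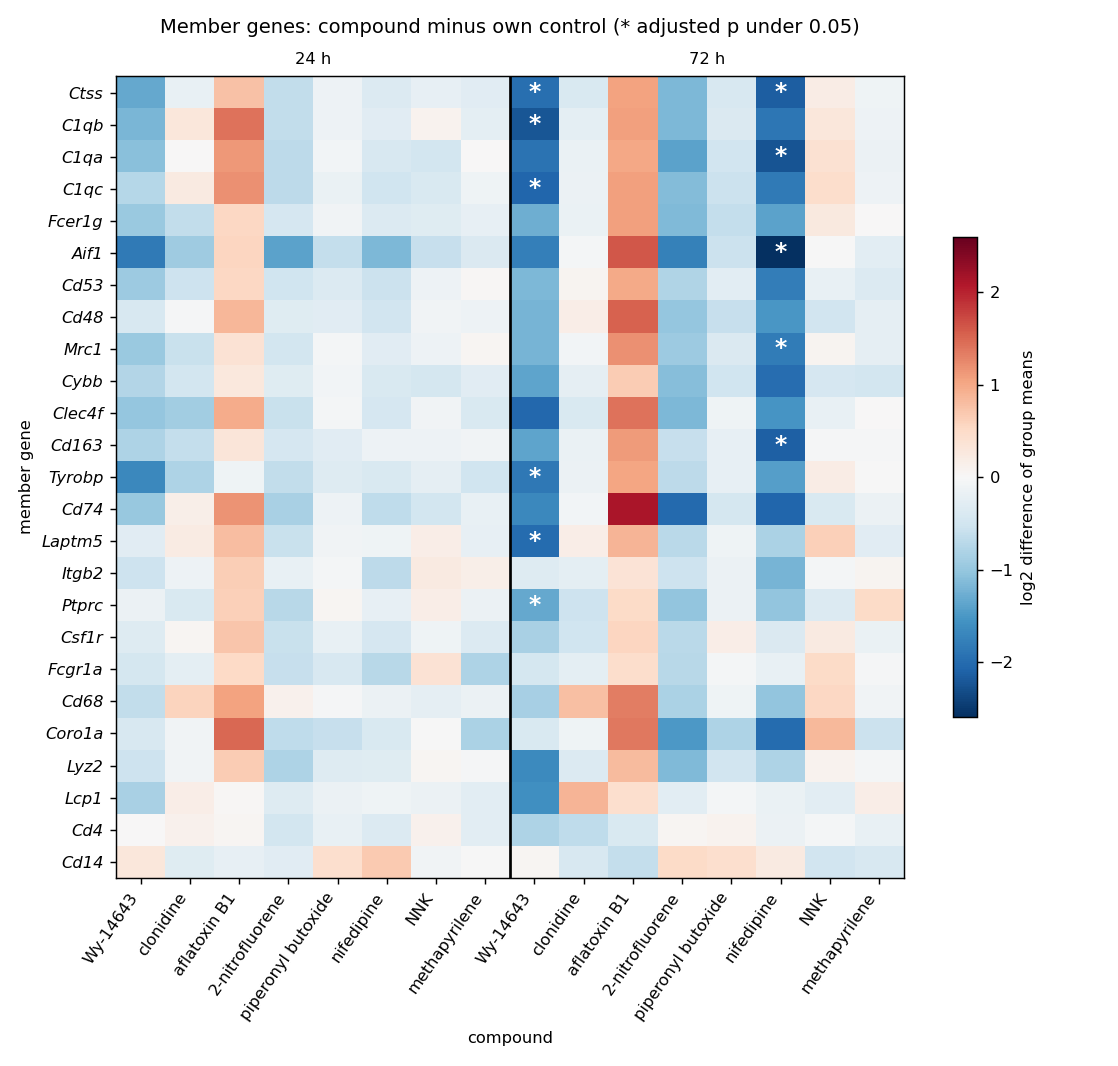
Log2 difference of the group means, compound minus own control, for the 25 measured member genes (rows, ordered by their correlation with the mean of the other members) in 8 compounds at 24 h (left) and 72 h (right), with blue for lower, red for higher and a star for an adjusted p under 0.05. The 6 stars of Wy-14643 and the 5 of nifedipine all lie at 72 h, the aflatoxin B1 columns are red for 23 of 25 genes, and Cd14 at the bottom runs apart from the rest.

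After 72 h of Wy-14643, an agonist of PPARα, 6 of the 25 members fell: C1qb, C1qc, Laptm5, Ctss, Tyrobp and Ptprc. Over all probe sets 4.49% were called lower. A further 18 members had negative differences that did not pass, and Cd14 alone was on the other side of 0 (0.06). 22 of 25 members were lower in all 3 pairs of arrays with equal D number, where 25% of all probe sets were.

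Ctss encodes cathepsin S, a lysosomal protease of antigen-presenting cells. It read 237, 155 and 178 on the D1, D2 and D3 control arrays and 63.9, 24.7 and 69.9 on the Wy-14643 arrays, so the groups did not overlap. The difference was -1.96 in log2 (SE 0.53), a 3.9-fold lower level, with a limma adjusted p of 0.0142. C1qb and C1qc encode chains of C1q, the recognition part of the classical complement pathway, which macrophages make. C1qc read 136, 85.7 and 149 in the control and 30.9, 9.19 and 84.9 after Wy-14643 (-2.06, SE 0.59, adjusted p 0.0206), with the highest exposed array just under the lowest control array. C1qb read 205, 84.2 and 191 against 47.6, 6.95 and 96.5 (-2.23, SE 0.68, adjusted p 0.0332), and here the D3 exposed array lay above the D2 control array. The third chain, C1qa, read 90.9, 45.8 and 137 against 17.3, 10.2 and 59.9 (-1.92, adjusted p 0.0665) and missed the threshold.

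Tyrobp, the ITAM adaptor DAP12 of several myeloid receptors, read 36.1, 24.4 and 37.4 in the control and 12, 4.54 and 12.6 after Wy-14643 (-1.86, SE 0.53, adjusted p 0.0212), with no overlap. Laptm5, a lysosomal membrane protein of blood cells, went from 30.6, 23.5 and 17.8 to 15.1, 2.01 and 4.23 (-2.0, SE 0.54, adjusted p 0.0135). One of these exposed arrays lay under the floor, and the second probe set of Laptm5 gave -1.92 without passing (adjusted p 0.193). Ptprc, the leukocyte phosphatase CD45, went from 17.4, 13.1 and 12.2 to 7.73, 6.38 and 3.47 (-1.34, SE 0.43, adjusted p 0.0438). Neither gene's groups overlapped.

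The other members had smaller or more scattered differences. Aif1, the actin-bundling protein IBA1 of macrophages, had -1.78 (adjusted p 0.0527). The Kupffer cell lectin Clec4f had -2.04 with an SE of 0.99 (adjusted p 0.224), its control arrays reading 51.9, 24.7 and 101 and its exposed arrays 9.45, 3.89 and 50.8. The invariant chain Cd74 (-1.68, SE 1.01) and the lysozyme Lyz2 (-1.65, SE 0.90) had larger standard errors than Ctss. The mannose receptor Mrc1 (-1.21) and the oxidase subunit Cybb (-1.37) read lower on every exposed array than on any control array without passing. The smallest differences were those of the integrin chain Itgb2 (-0.34), Coro1a (-0.40), Fcgr1a (-0.45) and Cd14 (0.06).

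The calls of Wy-14643 rested on how the spread was estimated and on single arrays. No member passed when the spread came from the Wy-14643 set alone (lowest limma adjusted p 0.0851, with 0.393% of probe sets called lower), none passed without the control D1 array (3.35%) or without the Wy-14643 D2 array (1.29%), and 2 passed without the control D3 array (4.63%). With D number as a block 10 members passed (7.83% of probe sets lower), without the D3 arrays 9 (5.12%) and without all 10 arrays of high actin ratio 11 (6.88%). With no filter on low values C1qb and Ptprc did not pass (2.24%), and with quantile normalization Ptprc did not (3.91%). Ptprc kept its call in 3 of 8 alternatives that leave out no single array. The median was -1.65 both without the D3 arrays and without those of high actin ratio, and -0.83 without the Wy-14643 D2 array.

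**Figure D2:**
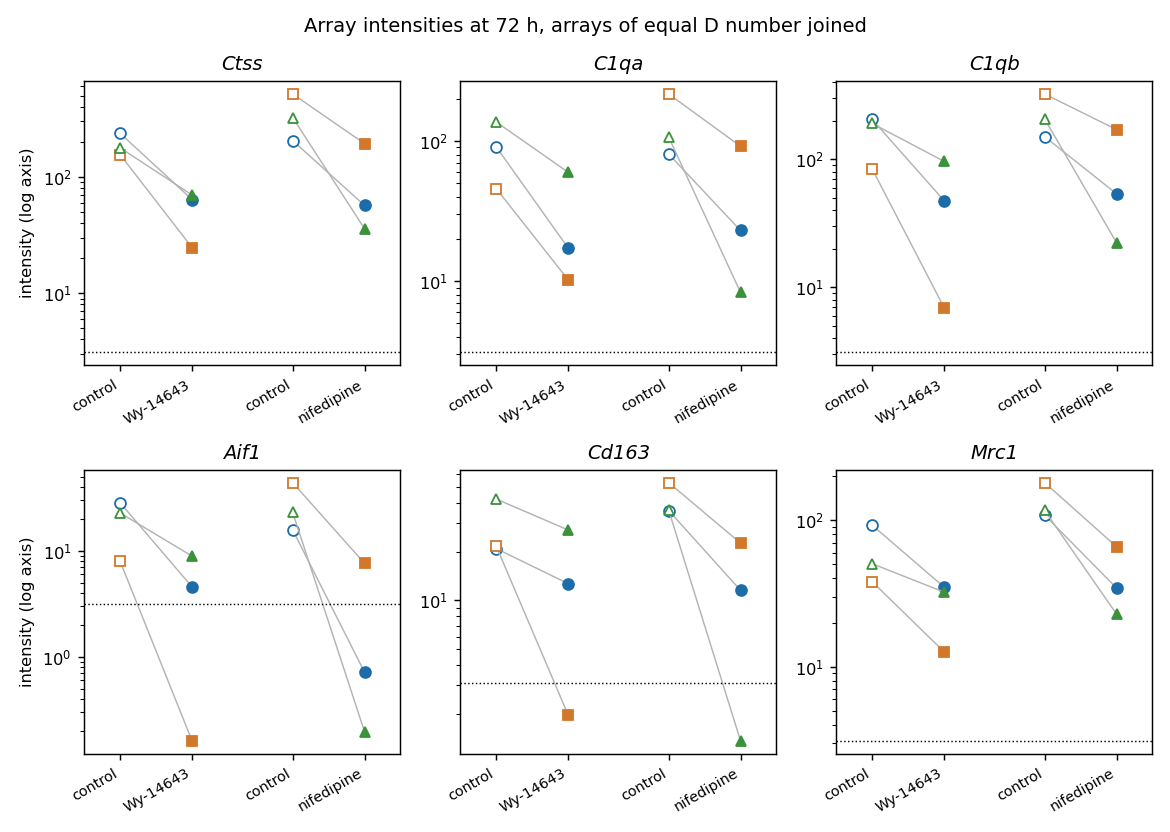
Intensity on a log axis of 6 member genes on the 72 h arrays of Wy-14643 and its control (left of each panel) and of nifedipine and its control (right); open symbols are control arrays, filled symbols exposed arrays, lines join arrays of equal D number (circle D1 or D7, square D2 or D8, triangle D3 or D9), and the dotted line is the floor of 3.12. Every joined line goes down, and exposed arrays of Aif1 and Cd163 reach below the floor.

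After 72 h of nifedipine, a calcium channel blocker, 5 of the 25 members fell: Aif1, C1qa, Ctss, Cd163 and Mrc1, against 1.83% of all probe sets called lower. Cd14 was again the single member above 0 (0.24). 20 members were lower in all 3 D pairs, against 33.1% of all probe sets. The nifedipine and Wy-14643 groups share no control arrays, and Ctss was the 1 gene called in both, 1 of 5 here and 1 of 6 there.

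Ctss read 205, 518 and 325 on the D7, D8 and D9 control arrays and 56.9, 193 and 35.9 on the nifedipine arrays (-2.15, SE 0.53, adjusted p 0.0148 by limma), with no overlap. Aif1 went from 15.8, 44.1 and 23.1 to 0.715, 7.63 and 0.196 (-2.59, SE 0.59, adjusted p 0.00766). The D7 and D9 exposed arrays of Aif1 lay under the floor, so its fold depends on the floor, although the groups did not overlap. C1qa went from 80.7, 217 and 107 to 23, 91.6 and 8.31 (-2.25, SE 0.66, adjusted p 0.0453), where the D8 exposed array was above the D7 control array. C1qb (-1.87, adjusted p 0.118) and C1qc (-1.84, adjusted p 0.0691) did not pass.

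Cd163 and Mrc1 are scavenging receptors of resident macrophages, for haemoglobin-haptoglobin complexes and for mannose-bearing glycoproteins. Cd163 read 35.7, 53 and 36 in the control and 11.5, 22.5 and 1.37 after nifedipine (-2.13, SE 0.55, adjusted p 0.0187 by limma), with the D9 exposed array under the floor. Mrc1 read 108, 180.5 and 117 in the control and 34.4, 65.9 and 22.8 after nifedipine (-1.82, SE 0.44, adjusted p 0.013). For both, every exposed array was below every control array. Clec4f, the lectin marking Kupffer cells, read 16, 112 and 96.3 in the control and 15.4, 32.5 and 13.9 after nifedipine (-1.54, SE 0.99, adjusted p 0.453), so its D7 control array was already near the exposed ones.

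Of the remaining members, Cd74 (-2.06), Coro1a (-2.01), Cybb (-1.97), Cd53 (-1.79) and Cd48 (-1.51) had differences beyond -1.5 that did not pass. The colony-stimulating factor receptor Csf1r (-0.37), Fcgr1a (-0.18), the actin-bundling Lcp1 (-0.17) and Cd4 (-0.15) were nearer to their controls. The mean log2 intensity over members was 3.87 on the nifedipine D9 array, against 4.12 on D7 and 5.46 on D8.

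No member passed without the control D8 array (0.393% of all probe sets called lower) or without the nifedipine D7 array (0.382%). 1 (Aif1) passed without the nifedipine D9 array (0.959%) and 12 without the nifedipine D8 array (1.39%). C1qa did not pass with no filter on low values (0.844%) or with quantile normalization (1.21%). With D number as a block 9 members passed (4.77% of probe sets lower), with the spread of the nifedipine set alone 8 (7.69%), without the D3 arrays, which enter this comparison only through the spread, 11 (4.43%), and without all arrays of high actin ratio 11 (5.61%).

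2-Nitrofluorene, which shares its control arrays with nifedipine, had 24 members lower at 24 h and 23 at 72 h, and none passed the test at either time. Over all probe sets 1.13% and 0.809% were called in either direction, and 1 and 8 of 25 members had an unadjusted limma p under 0.05, as did 10.9% and 8.13% of all probe sets. Cd74 read 53.7, 127 and 52.2 in the 72 h control and 8.75, 37.5 and 16.2 after 2-nitrofluorene (-2.02, SE 1.01, adjusted p 0.612), without overlap. Aif1 read 15.8, 44.1 and 23.1 against 4.19, 16.2 and 6.1 (-1.76, SE 0.59, adjusted p 0.224), and its highest exposed array lay just above its lowest control array. Coro1a had -1.49 (adjusted p 0.56) with 2 of its exposed arrays under the floor. At 24 h the largest difference was that of Aif1 (-1.4, adjusted p 0.323), followed by Cd74 (-0.83) and Lyz2 (-0.80). 19 members at 24 h and 22 at 72 h were lower in all 3 D pairs, where 26.1% and 32% of all probe sets were. The pairs' mean differences over the members were -1.06, -0.80 and -0.90 at 72 h. Cd74 alone passed with the spread of the nifedipine set alone (1.44% of probe sets lower), without the D3 arrays (0.41%) and without all arrays of high actin ratio (0.576%). The median was -0.53 without the 2-nitrofluorene D7 array.

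At 24 h no member passed after Wy-14643 (0.0443% of probe sets called in either direction) or nifedipine (0.46%), and 4 and 0 of 25 members had an unadjusted limma p under 0.05, as did 10.5% and 8.79% of all probe sets. For Wy-14643, Aif1 read 37.7, 20.6 and 34 in the control and 16.2, 11.6 and 0.40 after exposure (-1.83, SE 0.59, adjusted p 0.22). Tyrobp read 41.1, 34.1 and 68.4 against 22.3, 22.5 and 5.79 (-1.68, adjusted p 0.211), and Ctss had -1.33 (adjusted p 0.341). Aif1 and Tyrobp were lower on every exposed array than on any control array. The D3 array of the exposed group stood far below the others, with a mean log2 intensity over members of 3.33 against 5.59 and 5.47, and without it the median difference was -0.01. Without all D3 arrays it was -0.32, with 23 of 25 members lower. Lower in all 3 D pairs were 18 members after Wy-14643 and 17 after nifedipine, against 21.7% and 22.6% of all probe sets. For nifedipine at 24 h the largest differences were those of Aif1 (-1.17, adjusted p 0.571), Fcgr1a (-0.71), Itgb2 (-0.69) and, above 0, Cd14 (0.68).

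Aflatoxin B1 was the exposure with higher members at both times: 23 of 25 were above the control at 24 h and at 72 h, and none passed the test. Of all probe sets, 55.3% and 49.0% lay below the control. The second measured probe set of Cybb, which does not represent the gene here, also lay below it (-0.53 and -0.47, neither passing). Over all probe sets 3.33% and 4.91% were called in either direction, and 3 and 7 of 25 members had an unadjusted limma p under 0.05, as did 13.6% and 16.3% of all probe sets. 17 members at 24 h and 20 at 72 h were higher in all 3 pairs of equal D number, against 13.1% and 17.6% of all probe sets. Cd74, the invariant chain of MHC class II, read 43.8, 19.5 and 256 in the 72 h control and 124, 318 and 459.8 after aflatoxin B1 (2.12, SE 1.01, adjusted p 0.27), so the D1 exposed array lay within the control range. Aif1 went from 28.4, 7.94 and 22.8 to 40.4, 91 and 39.5 (1.61, SE 0.59, adjusted p 0.115), and Cd48, a surface receptor of leukocytes, from 32.4, 14.4 and 34.4 to 69.3, 85.3 and 64.7 (1.52, SE 0.59, adjusted p 0.144). For Aif1 and Cd48 the groups did not overlap, nor did they for Ctss (1.05), C1qb (1.08), C1qc (1.07) and Tyrobp (1.02). The share of all probe sets without overlap was not counted, here or in the other comparisons. A lack of overlap is therefore not a result about the members. The members below the control at 72 h were Cd14 (-0.62) and Cd4 (-0.40).

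Mrc1 had 1.2 at 72 h (SE 0.44, limma adjusted p 0.119), and it alone passed with D number as a block (4.38% of probe sets higher) and without the aflatoxin B1 D3 array (3.31%). At 24 h the largest differences were those of Coro1a (1.49, SE 0.70, adjusted p 0.323), C1qb (1.41, SE 0.68, adjusted p 0.348) and C1qc (1.19, SE 0.59, adjusted p 0.36). C1qb read 172, 120.2 and 48.9 in the control and 355, 224 and 239 after exposure, with no overlap. The aflatoxin B1 arrays of high actin ratio outside D3 had the highest mean log2 intensity over members of their groups (6.64 on D1 at 24 h and 6.54 on D2 at 72 h). Without the D3 arrays the medians were 0.56 and 1.21 and 3 members passed at 72 h (Aif1, Cd68 and Cd74, with 6.18% of probe sets higher). Without all arrays of high actin ratio the medians were 0.34 and 0.78 and none passed.

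The remaining exposures left the medians of the members near 0, and no member passed in any of them. Over all probe sets the shares called in either direction were 0.0166% and 0.0332% for clonidine at 24 h and 72 h, 0.0887% and 0% for piperonyl butoxide, 0.92% and 3.32% for NNK, and 0 at both times for methapyrilene. No member had an unadjusted limma p under 0.05 in these 8 comparisons, where the shares of all probe sets that did were 6.71% and 4.63%, 3.8% and 1.09%, 8.93% and 15.6%, and 2.29% and 1.78% in the same order. The sign of each of the 8 medians depended on which array was left out. For clonidine, an agonist of alpha-2 adrenoceptors, Lcp1 at 72 h read 62.2, 30.2 and 17.2 in the control and 148, 47.3 and 29 after exposure. The largest differences of clonidine were Aif1 (-0.92), Clec4f (-0.90) and Tyrobp (-0.80) at 24 h and Lcp1 (0.88), Cd68 (0.78) and Cd4 (-0.66) at 72 h. Without the D3 arrays the medians of clonidine were -0.20 and -0.18, with 23 and 21 of 25 members lower, none passing, and none with an unadjusted p under 0.05 (2.4% and 4.76% of all probe sets).

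Piperonyl butoxide had 23 and 22 members below the control, and its largest differences were Aif1 (-0.62), Coro1a (-0.60) and Cd14 (0.43) at 24 h and Coro1a (-0.80), Fcer1g (-0.62) and Cd48 (-0.59) at 72 h. NNK had 18 members lower at 24 h and 12 at 72 h. Its largest differences were Aif1 (-0.60), C1qa (-0.47) and Cd74 (-0.47) at 24 h, and Coro1a (0.85), Laptm5 (0.62) and Cd68 (0.54) at 72 h. Methapyrilene had 21 and 20 members lower, with Coro1a (-0.83), Fcgr1a (-0.81) and Tyrobp (-0.52) largest at 24 h and Coro1a (-0.57), Ptprc (0.49) and Cybb (-0.49) at 72 h. Fcer1g is the common gamma chain of Fc receptors, Fcgr1a the high-affinity receptor for IgG, and Coro1a a leukocyte coronin that lay at the floor on 21 of 72 arrays. Coro1a passed the filter only through the 72 h NNK group, where its group mean was highest (26.3). Its rise after 72 h of NNK is therefore partly set by the filter.

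The effect at 72 h minus that at 24 h was tested in the same model, and no member passed for any of the 8 compounds. Over all probe sets 0.116% were called for nifedipine, 0.0277% for NNK, 0.00554% for 2-nitrofluorene and none for the others. An unadjusted limma p under 0.05 was reached by 3 members for nifedipine, 1 for Wy-14643 and none for the others, and by 7.4% and 6.41% of all probe sets for these. For clonidine, aflatoxin B1, 2-nitrofluorene, piperonyl butoxide, NNK and methapyrilene the shares were 1.06%, 2.43%, 3.88%, 1.31%, 4.84% and 1.02%. The median over members of this difference was -1.05 for nifedipine, with 22 of 25 members more negative at 72 h, and -0.60 for Wy-14643, with 21 of 25. The lowest adjusted p among members was that of Cd163 for nifedipine (-1.99, SE 0.77, adjusted p 0.503) and of Laptm5 for Wy-14643 (-1.72, SE 0.76, adjusted p 0.744).

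Without the D3 arrays, a choice made for this difference after seeing the data, the median was -1.26 for Wy-14643 (with the D3 arrays -0.60), -0.01 for clonidine (with them -0.01) and 0.44 for aflatoxin B1 (with them 0.28). No member passed for these 3 compounds either way. An unadjusted limma p under 0.05 was then reached by 4 of 25 members for Wy-14643 and by none for clonidine and aflatoxin B1, against 9.61%, 0.964% and 4.33% of all probe sets. No member's effect was shown to differ between the times.

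The level of the members also varied between arrays of 1 group, in several sets in the same order of D numbers (the plot of array means). At 24 h the mean log2 intensity over the 25 members was highest on D7 and lowest on D9 in 6 of 6 groups of the nifedipine and NNK sets. At 72 h it was highest on D8 in 6 of 6 and lowest on D7 in 5 of 6, the exception being nifedipine with D9. In the Wy-14643 set at 24 h it was highest on D1 and lowest on D3 in 4 of 4 groups, and for methapyrilene and its control D4 was lowest at both times. In the Wy-14643 set at 72 h the order was not shared: D2 was lowest in 3 of 4 groups and D1 highest in 2 of 4, and for aflatoxin B1 D1 was lowest and D2 highest, the reverse of its control.

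The controls of the nifedipine set and of NNK carry the same D numbers. At 24 h their means on D7, D8 and D9 were 6.46, 5.90 and 5.50 in the first and 6.37, 5.78 and 5.49 in the second. At 72 h they were 5.19, 6.46 and 5.86 and 5.38, 6.58 and 5.98. Arrays of equal D number in these control groups thus differed by at most 0.12 at 24 h and 0.19 at 72 h, while arrays of different D number within 1 group spanned 0.89 and 0.96 at 24 h and 1.21 and 1.27 at 72 h. No member passed between these control groups, where 0 of 18048 probe sets were called at either time and no member had an unadjusted limma p under 0.05, which 2.28% and 2.32% of all probe sets had.

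**Figure D3:**
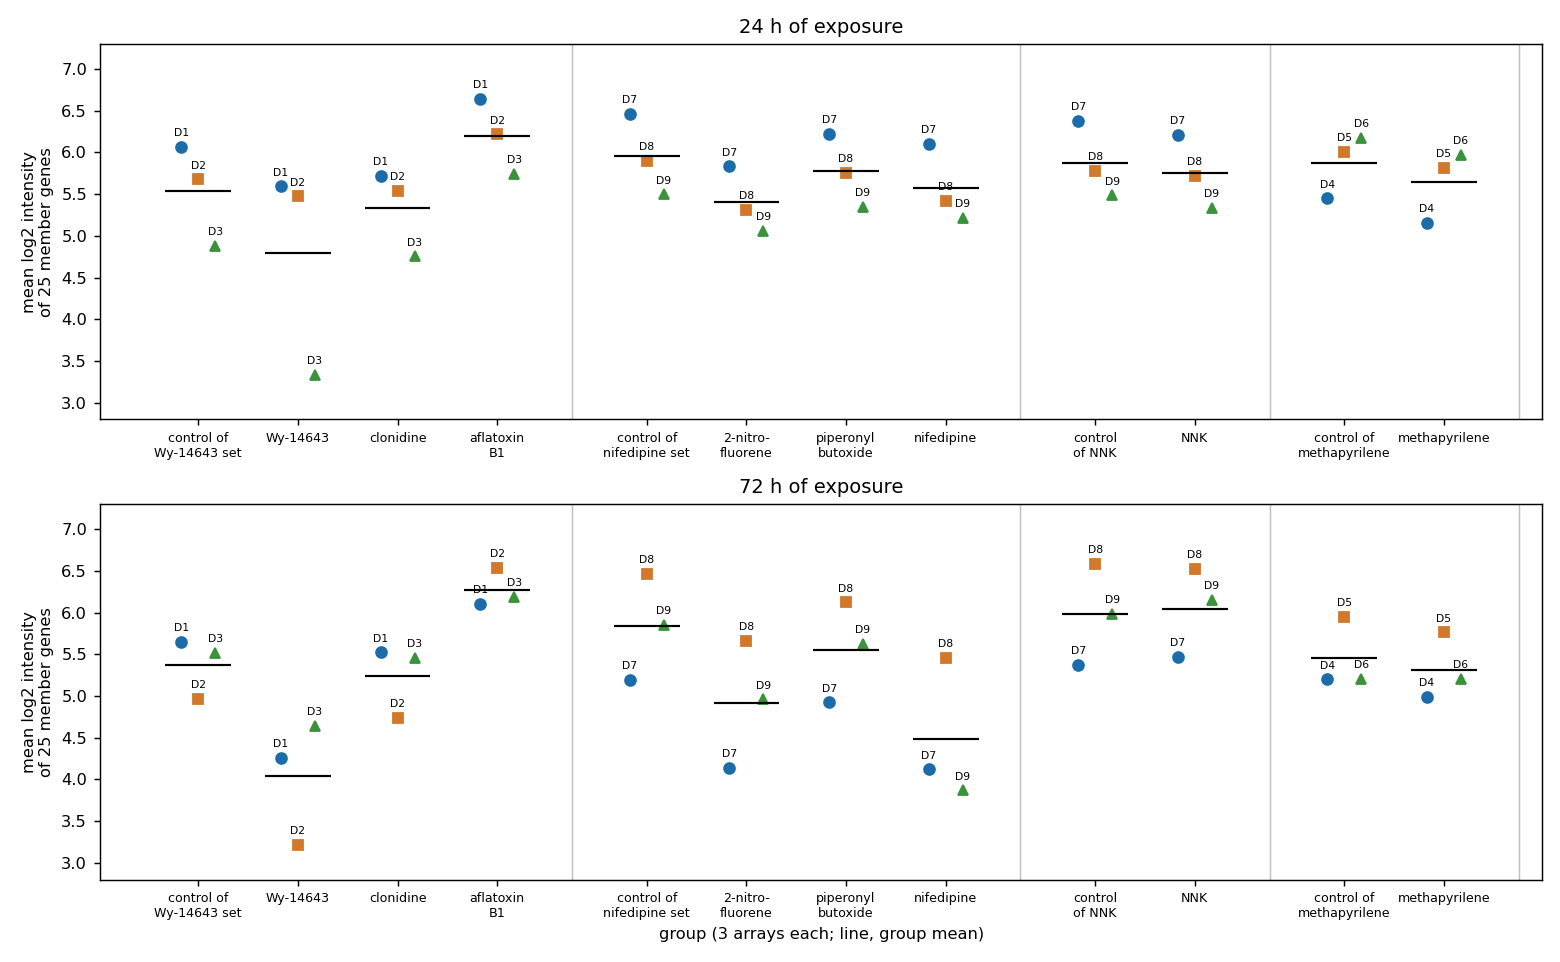
Mean log2 intensity of the 25 measured members on each of the 72 arrays (points labelled by D number, lines at group means) at 24 h (top) and 72 h (bottom), with vertical lines between sets that share a control. Within the nifedipine and NNK sets D8 is on top in every group at 72 h, the exposed arrays of Wy-14643 and nifedipine at 72 h lie below the control arrays of equal D number, and the Wy-14643 D3 array at 24 h stands at 3.33.

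Between the 4 control groups at 1 time, limma's F test called no member: 0 of 25 passed at 24 h, against 6.63% of all probe sets, and 0 of 25 at 72 h, against 13.3%. This test took no account of D numbers, although the controls of the nifedipine set and of NNK carry the same ones. At 24 h none and at 72 h Mrc1 and Cd48 had an unadjusted p under 0.05, against 18.7% and 27.8% of all probe sets. The lowest adjusted p was 0.0951 for Mrc1, which alone passed without the D1 control array of the Wy-14643 set (13.9% of probe sets called). Cd74 alone passed at 72 h without the arrays of high actin ratio (19.2%), and with no filter on low values Itgam and Lcp2 did (7.89%). The geometric mean of Mrc1 was lowest in the 72 h control of the Wy-14643 set (56.2) and highest in the 72 h control of NNK (138). Over the 24 control arrays the intensity of Ctss ranged from 147 to 518 (median 239.7), and that of C1qb from 48.9 to 357 (median 187). Cd163 ranged from 20.9 to 75.5 (median 38.1), Cd74 from 19.5 to 362 (median 153) and Clec4f from 5.2 to 190.5 (median 89.1).

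With time in culture, from 24 h to 72 h, no member passed in any of the 4 control groups, while the shares of probe sets called in either direction were 0% in the control of the Wy-14643 set, 2.71% in that of the nifedipine set, 2.85% in that of NNK and 0.51% in that of methapyrilene. An unadjusted limma p under 0.05 was reached by 2 of 25 members in the control of methapyrilene and by none in the others, against 2.3%, 17.9%, 18.7% and 13.1% of all probe sets in the order above. The medians over members were -0.15, -0.03, 0.17 and -0.33 in that order. Without the D3 arrays the median in the control of the Wy-14643 set was -0.45, with 19 of 25 members lower. Members differed in direction (the plot of members with time). Cd74 was lower at 72 h in all 4 controls (-1.04, -1.78, -1.27 and -2.08), as were Clec4f (-0.42, -1.14, -0.85 and -2.77) and the lysosomal glycoprotein Cd68 (-0.36, -1.29, -1.09 and -1.09). Lyz2 was higher in all 4 (0.33, 1.41, 1.44 and 0.21).

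In the control of methapyrilene, Clec4f read 69.5, 183 and 91.5 on D4, D5 and D6 at 24 h and 11.3, 62.5 and 5.2 at 72 h (-2.77, SE 0.99, adjusted p 0.168 by limma), with no overlap. Cd74 read 359, 248 and 163 on D7, D8 and D9 in the 24 h control of the nifedipine set and 53.7, 127 and 52.2 at 72 h (-1.78, SE 1.01, adjusted p 0.354), also with no overlap. In the control of the Wy-14643 set Cd74 went from 273 and 254 to 43.8 and 19.5 on D1 and D2 but from 27.7 to 256 on D3, the number on which the culture-time score ran opposite to the labels.

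Without the D3 arrays Cd74 passed in the control of the Wy-14643 set (0.26% of probe sets called lower), in that of the nifedipine set (3.58%) and, with Clec4f, in that of methapyrilene (1.35%). Without all arrays of high actin ratio the same genes passed in these controls, with Cd68 added in that of the nifedipine set (0.393%, 4.57% and 1.82%). With the spread of its own set Cd68 passed in the controls of the nifedipine set, NNK and methapyrilene, and Cd74 in the first and last of these (6.56%, 4.6% and 0.438% of probe sets lower).

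**Figure D4:**
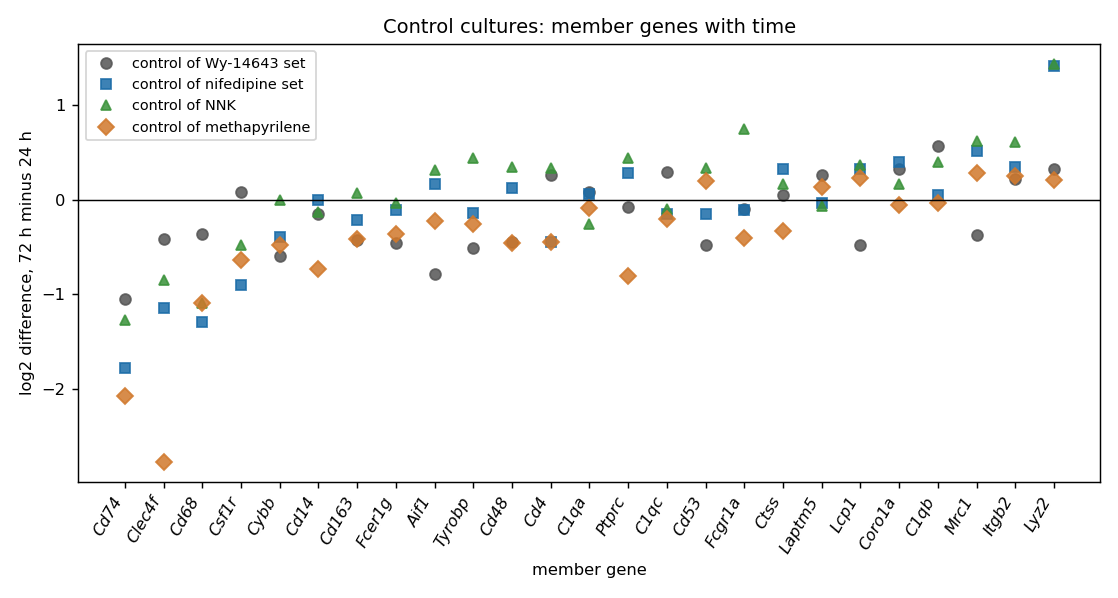
Log2 difference 72 h minus 24 h in the 4 control groups (symbols) for the 25 measured members (x axis). Cd74, Clec4f and Cd68 lie below 0 in all 4 controls and Lyz2 above 0 in all 4, and none passed the test.

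Most members varied together from array to array. With each array centred on its own control group, the correlation of a member with the mean of the other 24 was taken over the 72 arrays, which share controls and scaling. It was highest for Ctss (Pearson r = 0.95), C1qb, C1qa and C1qc (0.94 each) and Fcer1g (0.93). It was 0.87 for Mrc1, 0.86 for Clec4f, 0.85 for Cd163 and 0.84 for Cd74. It was low for Cd4 (0.26) and below 0 for Cd14 (-0.17), the lipopolysaccharide co-receptor, which hepatocytes can also make. Among the other 10153 genes, the 10 most like the members' mean were Ms4a6a (0.91), Clec4a3 and Ms4a6bl1 (0.90 each), Srgn and Cfd (0.89 each), Rgs1 (0.88), and Ccl6, Arhgdib, Cd5l and Ifitm1 (0.86 each). The 10 were chosen on these same arrays, exposed ones included, so their differences are a description with no test. After 72 h of nifedipine they were -2.43 for Ms4a6a, -2.22 for Clec4a3, -1.67 for Ms4a6bl1, -1.68 for Srgn, -1.82 for Cfd, -2.71 for Rgs1, -2.73 for the chemokine Ccl6, -0.56 for Arhgdib, -1.73 for Cd5l and -0.97 for Ifitm1.

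Among other gene lists of macrophages, that of MHC class II had a median of -1.3 after 72 h of nifedipine, with 6 of 6 genes lower and none passing limma's test. The list of macrophage cytokines and chemokines had -0.64 with Ccl6 alone passing of 8. The lists of macrophage transcription factors and of ITAM and Fc receptor signalling had -0.84 and -0.09, with none passing. The list of other resident macrophage genes had -0.03, with Hmox1, the stress-induced haem oxygenase, higher by 3.58 (adjusted p 2.56e-05) and the iron exporter Slc40a1 higher by 0.82 (adjusted p 0.0132), both of which hepatocytes also express. Hmox1 also rose after nifedipine at 24 h (2.74) and after clonidine at 72 h (3.11), where Gpnmb, a glycoprotein of macrophages, rose as well (2.36). The list of other resident macrophage genes had a median of 0.08 after 72 h of clonidine, with 4 of 8 genes lower. Zap70, the T cell receptor kinase, rose after 72 h of nifedipine (2.59, limma adjusted p 0.013). Lck, the only other measured gene of the T, B and NK cell list, did not pass. The other genes of that list with a probe set were below the filter, so this is a rise of a single gene and not of the list. The difference of Zap70's second measured probe set is not given here.

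After 72 h of Wy-14643, RT1-DMb of the MHC class II list (-0.88, limma adjusted p 0.0121), the kinase Fgr (-1.63, adjusted p 0.0175) and the growth factor Csf1 (-1.08, adjusted p 0.00598) fell, and Hmox1 rose (1.96, adjusted p 0.0162). The list medians were -0.66 for MHC class II, -0.32 for ITAM and Fc receptor signalling, -0.94 for cytokines and chemokines, -0.14 for macrophage transcription factors and -0.17 for other resident macrophage genes. After aflatoxin B1 at 72 h the MHC class II list had a median of 1.37, and none of its genes passed. In the controls over time, the MHC class II medians were -0.72, -1.77, -1.18 and -1.43 in the order given above, and of the macrophage transcription factors Nr1h3 fell in that of NNK (-1.01, adjusted p 0.0102).

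Markers of the other liver cells moved beside the members as follows (the plot of list medians), and their part in the members' differences was not tested. Summed over the 12 measured stellate cell and fibroblast genes, the 72 h Wy-14643 arrays lay at 531 to 2439 and the controls at 2359.5 to 5272, with 10 of 12 genes lower (median -1.0) and the intermediate filament gene Vim passing (-1.9, limma adjusted p 0.00207). The 6 measured endothelial genes summed to 51.4 to 246 against 62.8 to 345 (median -0.27), and the 20 hepatocyte genes to 37379 to 48220.1 against 55569 to 66805 (median -0.56). Of the hepatocyte genes Ahsg (-1.7), Otc (-2.65), Cyp2c11 (-2.68), Apoa1 (-0.98), Ttr (-0.59) and Apoc3 (-0.52) fell and Cyp2e1 rose (4.24). The 3 measured bile duct genes (Krt7, Epcam and Cldn4) summed to 179 to 534 against 357 to 631 (median -0.25). The members summed to 712 to 1139 against 1224 to 2035.

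For nifedipine at 72 h the hepatocyte sums were 52644 to 71852 against 53491 to 62553 (median 0.07, with Pck1 passing at -2.26). The endothelial sums were 81.2 to 105 against 77.8 to 108 (median -0.51) and the stellate sums 2149 to 2572 against 2317 to 3729.6 (median -0.68). The bile duct sums were 569 to 721 against 797 to 1006 and did not overlap, with 3 of 3 genes lower, none passing, and a median of -1.78, further from 0 than that of the members. Of these genes, Krt7 and Cldn4 lay at the floor on 51.4% and 38.9% of all arrays (median intensities 2.19 and 5.2). They passed the filter only through groups where they read high, so a fall from such a group is partly set by the filter. The members summed to 763 to 1772 against 1476 to 3341. For 2-nitrofluorene at 72 h the medians were -0.39 for stellate, 0.20 for endothelial, -0.75 for bile duct (3 of 3 lower, none passing) and 0.18 for hepatocyte genes, beside -1.01 for the members. For aflatoxin B1 at 72 h they were 0.79, -0.03, -0.18 and -0.18, beside 1.02, while Vim fell (-1.83, and -1.58 at 24 h). In the controls over time, the endothelial list had medians of -1.83, -1.64 and -1.72 for the nifedipine set, NNK and methapyrilene, with Pecam1 passing in that of NNK (-2.78), where the members had -0.03, 0.17 and -0.33. In the control of the Wy-14643 set, D3 included, the endothelial sums were 75.9 to 282 at 24 h and 62.8 to 345 at 72 h. The bile duct list had medians of 0.18, 2.37, 2.78 and 1.07 in the controls of the Wy-14643 set, the nifedipine set, NNK and methapyrilene. The keratin gene Krt7 rose by 4.17 and 4.69 in those of the nifedipine set and NNK, with Epcam (1.3 and 1.33) and, for NNK, Cldn4 (2.78). The limit from the filter holds for the rises of Krt7 and Cldn4 and for the fall of Pecam1 too. Pecam1, Kdr and Tek of the endothelial list had median intensities of 9.35, 9.44 and 9.84 over all arrays, below the filter's 19.7. They too passed only through groups where they read high, and Pecam1 lay at the floor on 22.2% of all arrays.

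**Figure D5:**
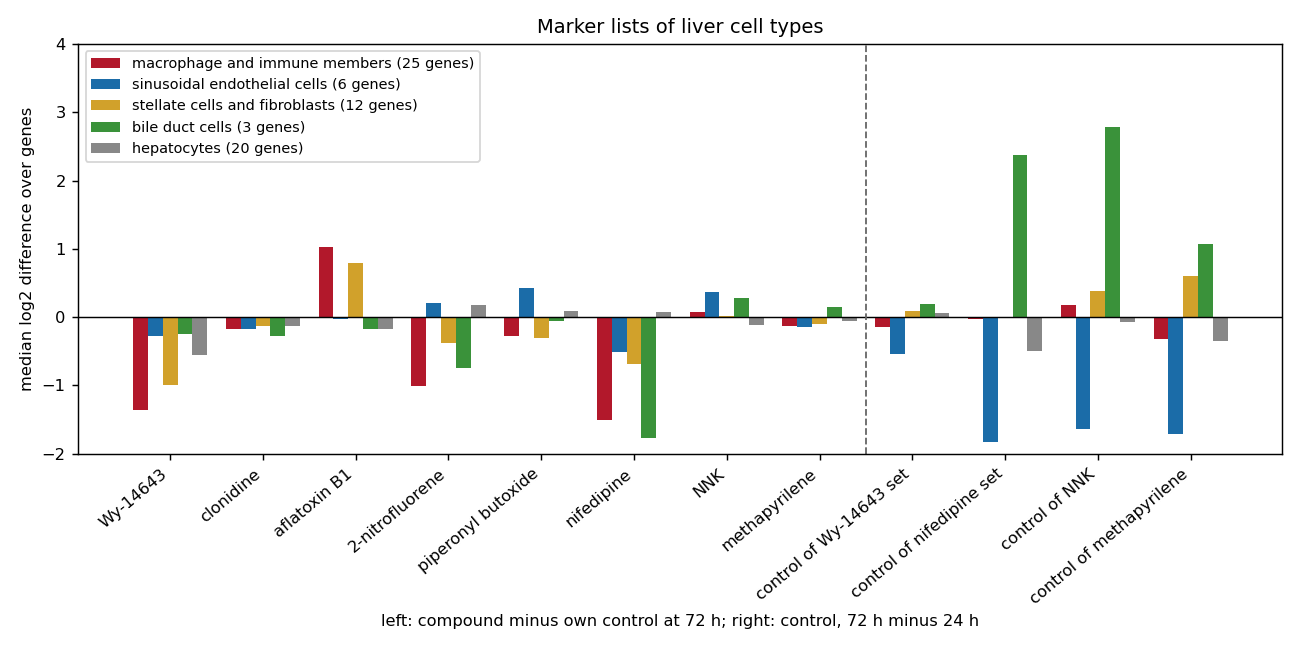
Median log2 difference over the measured genes of 5 marker lists (bars from 0) for each compound against its own control at 72 h (left of the dashed line) and for each control at 72 h against 24 h (right). The member bars reach -1.37 for Wy-14643, -1.51 for nifedipine and 1.02 for aflatoxin B1, the bile duct bar of nifedipine reaches -1.78, and in the controls of the nifedipine set, NNK and methapyrilene the endothelial bars point down to -1.83, -1.64 and -1.72 while the bile duct bars point up. The bile duct bars rest on Epcam and on Krt7 and Cldn4, which were often at the floor. The endothelial bars rest in part on Pecam1, Kdr and Tek, which passed the filter only through groups where they read high.

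The 7 members below the filter are given as levels. Itgam, the integrin chain CD11b, lay at the floor on 57 of 72 arrays and reached 26.6 at most. The oxidase subunits Ncf1 (at most 14.8) and Ncf4 (at most 25.8), the adaptor Lcp2 (at most 12.7), the tetraspanin Cd37 (at most 13), the exchange factor Vav1 (at most 14.9) and the T cell receptor chain Cd3e (at most 13.9) read low on all arrays. Csf1r, whose ligand sustains macrophages, was above the floor on every array (8.2 to 92.2). Cybb, the catalytic subunit of the phagocyte oxidase, had 2 measured probe sets that differed after 72 h of nifedipine (-1.97 and -0.28, neither passing), so its difference is uncertain.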

How the data were processed

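RNA of 72 rat hepatocyte cultures was hybridised to Affymetrix rat arrays. The deposited intensity values were made by the authors with MAS5, per the submitters' processing notes, and on every array the mean intensity after trimming 2.0% at each end is the same. The MAS5 version: not given in the sources used here. Control probe sets (57) were left out. Values were floored at 3.12, the 20th percentile, before log2, and probe sets were kept when the log2 mean of any of the 24 groups reached that of 19.7, the median of all values. Genes were named from the platform's annotation (20826 probe sets with 1 symbol, 436 with several, 9780 with none), each by its kept probe set of highest mean.

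A limma 3.58.1 model (R 4.3.3) with 24 group means was fitted to all 18048 kept probe sets, with 48 residual degrees of freedom and trended variance, and p-values were Benjamini-Hochberg adjusted within each comparison. The number of arrays limits the precision.

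Equal D numbers paired arrays (every correlation of deviations from group means above 0.1) in 18 of 22 comparisons. The exceptions were both times of aflatoxin B1 and the time comparisons of the controls of the nifedipine set and NNK.

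Alternatives were a floor at the 10th percentile, no filter, quantile normalization, D number as a block, each set alone, every probe set, and arrays left out. Named were all called members, otherwise the 3 largest differences, members by role, up to 3 called genes of each other list, and the 10 genes most like the members. The members and lists were chosen with earlier results of these data known. Upstream sequences and their coordinates are RefSeq's for GRCr8.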

Additional observations from a re-analysis of the deposited data

Results flagged for a closer look

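For NNK, Cd68, C1qc, Fcer1g, Ctss and Ptprc lay on one side of the control in all 3 pairs of equal D number at 24 h and on the other side in all 3 at 72 h. The share of all probe sets that did so was not counted, so the number of such genes is not a result about the members. The effect at 72 h minus that at 24 h was 0.78 in log2 for Cd68, 0.84 for C1qc, 0.57 for Fcer1g and 0.40 for Ctss, each below the control at 24 h and above it at 72 h. It was -0.53 for Ptprc, which was above the control at 24 h and below it at 72 h. For methapyrilene, Ptprc did the reverse, with a difference of 0.64. In limma's test of the difference itself none of these passed (adjusted p 0.999 for each gene of NNK and 1.0 for methapyrilene), and the standard errors, 0.61 to 0.92, were larger than 4 of the 6 differences.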

How the results depend on the processing

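The median differences over members moved by less than 1 pooled SD of the arrays' own medians in the groups compared. Those SDs were wide, 0.99 for Wy-14643 at 24 h, whose median ran from -1.15 to -0.01 with 1 array left out, and 0.38 for aflatoxin B1 at 72 h, whose median was 0.78 without the arrays of high actin ratio. No called value changed sign. With D number as a replicate block, 10 members passed for Wy-14643 at 72 h, 9 for nifedipine at 72 h and 1 for aflatoxin B1 at 72 h. The block changed no other call among the members, and the F tests were not run with it. With each set fitted alone the counts were 0 for Wy-14643, 1 for 2-nitrofluorene and 8 for nifedipine at 72 h, and with time 2 in the control of the nifedipine set, 1 in that of NNK and 2 in that of methapyrilene. Without the D3 arrays they were 9 for Wy-14643, 3 for aflatoxin B1, 1 for 2-nitrofluorene and 11 for nifedipine at 72 h, and with time 1 (Wy-14643 set), 1 (nifedipine set) and 2 (methapyrilene). Without all arrays of high actin ratio they were 11, 1 and 11 for Wy-14643, 2-nitrofluorene and nifedipine at 72 h, with time 1, 2 and 2 in the same controls, and 1 (Cd74) among the 4 controls at 72 h. With no filter 4 members passed for Wy-14643 and 4 for nifedipine at 72 h, and 2 (Itgam and Lcp2) among the 4 controls at 72 h; with quantile normalization 5 and 4 passed for Wy-14643 and nifedipine. Leaving out 1 array gave 0 to 9 for Wy-14643, 0 to 12 for nifedipine and 0 to 1 for aflatoxin B1 at 72 h, and 0 to 1 among the 4 controls at 72 h. The cause was not tested. Signals near the floor limit Aif1, Cd163, Coro1a and Laptm5.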
